A study of Arabidopsis thaliana with 2 samples.

Results

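Tau and phi glutathione transferases are the large plant classes of enzymes that join the tripeptide glutathione to reactive or toxic compounds. The gene set held 38 of the 33602 loci in the count tables, namely 27 tau genes, GSTU1 to GSTU28 without GSTU20, and 11 phi genes, GSTF2 to GSTF10 with GSTF13 and GSTF14. They were chosen by locus number from the gene family, with earlier results of these data known. GSTU20, GSTF11 and GSTF12, of the same classes, were left out of the set. All 38 carry the family name as symbol or synonym in the RefSeq annotation of the TAIR10.1 assembly. The samples were Arabidopsis thaliana first-pair rosette leaves of a pER8:3xFlag-NAC1 line in the Col-0 background, aged 12 days after sowing. In pER8 the inserted gene is switched on by estradiol, and the insert here is the gene of the transcription factor NAC1 with a Flag tag. Leaf explants of the same line were kept on B5 medium with estradiol in DMSO (1 library) or with DMSO alone (the control, 1 library), so both groups carried the transgene. The stated purpose was to find genes that NAC1 raises. With 1 library a group there is no replicate check and no test was run, and each difference is between these libraries, not a replicated effect of estradiol. No library of plants without the transgene on estradiol was analysed here, so responses to NAC1 and to estradiol itself cannot be told apart.

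Glutathione transferases of plants act on herbicides, on products of oxidised lipids and on some of the plant's own defence compounds, and several also bind small molecules without changing them. Conjugates are moved into the vacuole by transporters of the ABCC family. In leaves many of these genes are known to respond to salicylic acid, hydrogen peroxide, wounding or pathogens, and TGA-type transcription factors are known regulators of some of them.

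The libraries held 39799127 gene counts in the control and 48350705 with estradiol. NAC1 had 466 control counts and 28380 with estradiol, 49.4-fold higher (45.1 to 54.3), so the libraries went the way of their labels. These counts do not separate the transgene from the plant's own NAC1. Mesophyll markers were high in both libraries, with a summed level of 13857 CPM (counts scaled to library size) in the control and 9949.9 CPM with estradiol. Their log2 ratios ran from -0.94 to -0.19, and 0 of the 6 genes were called. The 6 epidermal and guard cell markers summed to 295 and 258 CPM, with log2 ratios from -1.24 to -0.08, and none was called. The phloem marker SUC2 stood at 183 and 153 CPM, a log2 ratio of -0.25. Of 6 root markers RHD6 was at 0 in both libraries, TIP2;3, COBL9, WER and CASP1 had at most 6 counts, and PYK10 had 1948 and 3915. In whole explants, a change in the number of cells of a type and a change in RNA per cell cannot be told apart. The part of tissue makeup in the values below was not tested.

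Of the 33 measured members 24 had a log2 ratio of estradiol to control above 0, against 50.6% of all measured genes. Among these members the median ratio was larger in the phi class than in the tau class, an order that depends on the set. Here genes reaching 10 counts in either library were taken as measured. A gene was called higher or lower when the exact 95% counting interval of its ratio lay wholly above 2-fold or below 0.5-fold. Of 33 measured members 8 were called higher (24.2%) and 0 lower, where 5.38% of all 20274 measured genes were called higher and 4.64% lower. The called members were GSTU3, GSTU4, GSTU9, GSTU11, GSTF2, GSTF3, GSTF6 and GSTF7. The median log2 ratio was 0.52 over 24 measured tau members and 1.15 over 9 measured phi members, against 0.01 over all measured genes. GSTU20, GSTF11 and GSTF12, outside the set, had log2 ratios of -1.56, -2.68 and -0.07. With them counted in, the phi median would no longer be the larger. Past 4-fold, 3 members were higher (GSTU3, GSTU4 and GSTF3) and 0 lower, where 2.31% of measured genes were higher and 0.794% lower. When a coefficient of variation of 0.2 was added to the counting error, 5 stayed higher and 0 were lower. They were GSTU3, GSTU4, GSTU9, GSTF3 and GSTF7, and under that rule 3.26% of measured genes were higher and 1.9% lower. GSTU11, GSTF2 and GSTF6 were no longer called there.

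**Figure D1:**
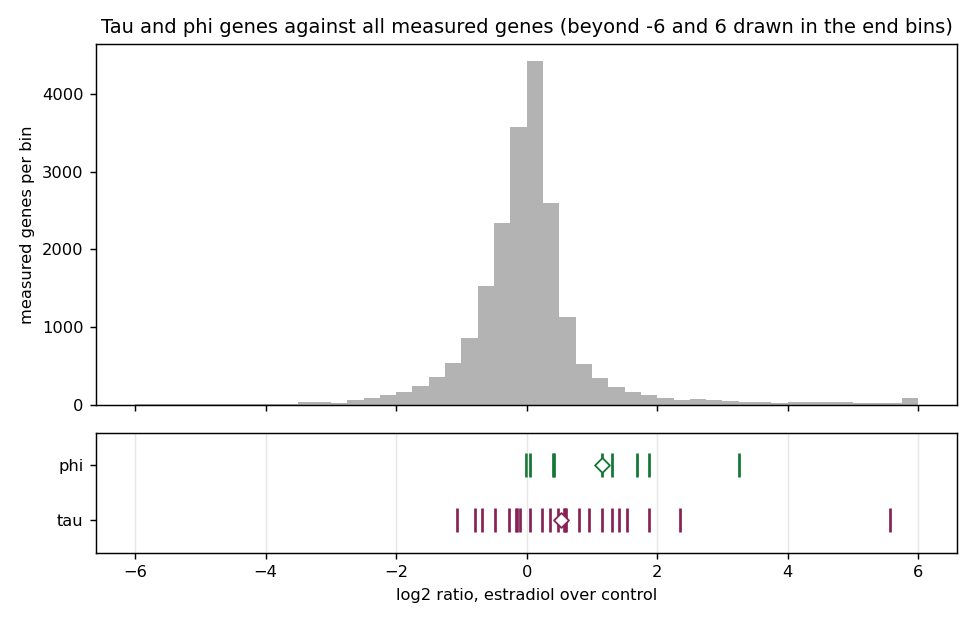
The upper panel counts all 20274 measured genes per bin of log2 ratio, estradiol over control, and the lower panel has a tick for each measured gene of the phi (9) and tau (24) classes with a diamond at the class median. The medians lie at 1.15 and 0.52, right of the main body of genes, which has its median at 0.01.

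In these libraries the classes differed in summed level and in the ratio of their summed counts. In RPKM, reads scaled for transcript length and library size, tau genes summed to 1109 in the control and 1133 with estradiol, and phi genes to 2024 and 3558. Phi genes thus made up 64.6% of the summed level of the 38 genes in the control and 75.9% with estradiol. The summed counts of the tau class were 1.02-fold those of the control (95% counting interval 1.01 to 1.03), and those of the phi class 1.76-fold (1.75 to 1.77). These totals and shares leave out GSTU20, GSTF11 and GSTF12, which are not among the 38. In RPKM the totals with these genes were 1366 and 1220 for tau and 2165 and 3688 for phi. With GSTU20 the tau counts were 61634 and 67912, a ratio of 0.894 (0.884 to 0.904), and with GSTF11 and GSTF12 the phi ratio was 1.71 (1.70 to 1.72), both totals chosen after seeing the data. GSTU19, the tau gene with the highest level, had 19080 control counts and 21117 with estradiol, a ratio of 0.898 (0.881 to 0.916). It held 38.9% of the level of the 27 tau genes in the control and 34.2% with estradiol, or 31.6% and 31.7% with GSTU20 counted in.

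**Figure D2:**
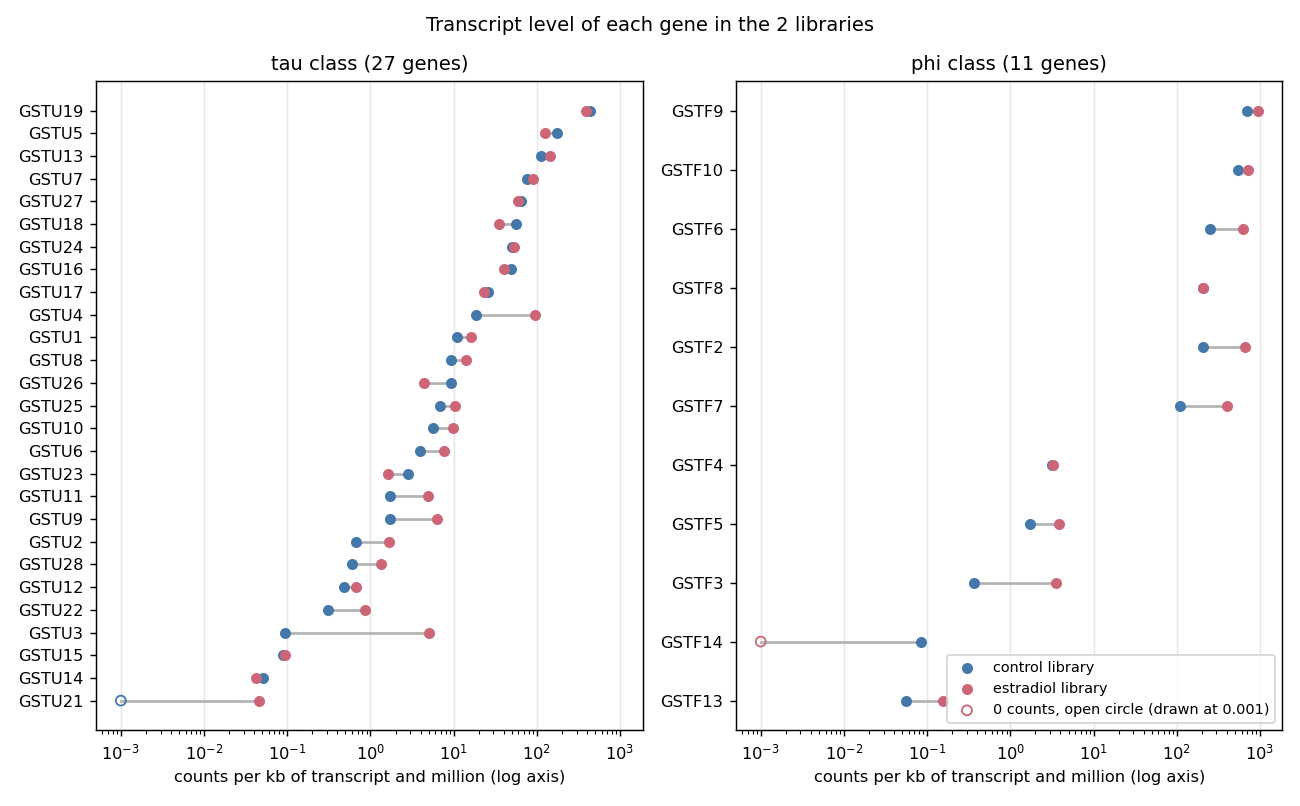
Level of each of the 27 tau and 11 phi genes in the control and the estradiol library, in RPKM on a log axis, ordered by the control level, with open circles for 0 counts. GSTU3 and GSTF3 have long connecting lines from a low control level, and GSTF2, GSTF6 and GSTF7 lie at 668, 623 and 403 RPKM with estradiol, below GSTF9 and GSTF10.

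Among the abundant phi genes, GSTF2, GSTF6 and GSTF7 were called higher, while GSTF8, GSTF9 and GSTF10 were not called. GSTF2 (AT4G02520, chromosome 4, 1110343 to 1112033 on TAIR10.1) encodes a protein known to bind camalexin and other small molecules. It had 12051 control counts and 47862 with estradiol, a level of 207 against 668 RPKM and a 3.22-fold ratio (3.16 to 3.29). GSTF6 (AT1G02930, chromosome 1, 661088 to 662475), linked in earlier work to camalexin synthesis, had 11802 and 35961 counts, 252 against 623 RPKM and a 2.47-fold ratio (2.42 to 2.52). Its neighbour GSTF7 (AT1G02920, chromosome 1, 658578 to 659980) had 5265 and 23826 counts, 110 against 403 RPKM, and was 3.67-fold higher (3.56 to 3.78). In the control GSTF2 stood level with GSTF8, at 207 and 209 RPKM, and with estradiol it was the third of all 38 genes, behind GSTF9 and GSTF10. GSTF3 (AT2G02930), which is rare, had 15 and 181 counts, 0.363 against 3.55 RPKM and a 9.79-fold ratio (5.78 to 17.9). Summed over these 4 genes there were 29133 control counts and 107830 with estradiol, 3.00-fold higher (2.96 to 3.04).

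Counts of these 4 phi genes are uncertain as single values, because their transcripts are alike. GSTF2 and GSTF3 shared 92.9% of 959 aligned bases, with a longest identical run of 74 bases, and GSTF6 and GSTF7 had an identical run of 116 bases. How many of the 181 GSTF3 counts are reads of the far more abundant GSTF2 cannot be told from these counts. GSTF2 also overlaps TOC159, on the opposite strand, by 1442 bases in the TAIR10.1 annotation, and TOC159 had 14509 and 16952 counts. Whether reads were counted by strand is not known from the sources used here, so reads in such overlaps may be assigned to either gene or to none. GSTU2, GSTU6, GSTU7, GSTU10, GSTF4 and GSTF10 also overlap genes on the opposite strand. On the same strand, GSTF8 overlaps AT2G47720, which had 0 counts in both libraries, by 516 bases, and GSTU10 overlaps OTP87 by 21 bases. Summed within pairs, GSTF2 with GSTF3 was 3.23-fold higher (3.17 to 3.30) and GSTF6 with GSTF7 2.84-fold higher (2.79 to 2.89).

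None of the other phi genes among the 38 was called. GSTF9 and GSTF10, adjacent genes on chromosome 2 with proteins 80.0% identical, had the highest levels of all 38 genes in both libraries, above those of more than 99% of measured genes. GSTF9 had 34194 and 56187 counts, 702 against 936 RPKM, a ratio of 1.33 (1.32 to 1.35). GSTF10, whose product is known to interact with the receptor kinase BAK1, had 24099 and 39140 counts, 539 against 710 RPKM, a ratio of 1.32 (1.30 to 1.34). Their ratios were closer to each other than those of any other pair of members at 70% protein identity or more, differing by 0.02 on the log2 scale. GSTF8, long used as a marker of early stress responses, had 14424 and 17669 counts and a ratio of 0.994 (0.972 to 1.02). In the cluster GSTF4 to GSTF7, GSTF4 had 121 and 155 counts, a ratio of 1.04 (0.814 to 1.33). GSTF5 had 67 and 184, a ratio of 2.23 (1.68 to 2.99), which was not called. GSTF13 had 2 and 7 counts and GSTF14 had 4 and 0, both below the count minimum, and the GSTF14 count of 0 allows up to 0.0616 CPM with estradiol.

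Upstream sequence of GSTF7 is shown because it had the largest ratio among the abundant phi genes. The window is the 250 bases before the RefSeq gene start, read 5′ to 3′ on the minus strand of TAIR10.1, chr1:659981-660230. Capitals mark TGACG, the core bound by TGA factors, and TTGAC, the W-box core bound by WRKY factors, on either strand, with TTGACG counted for both.
GSTF7: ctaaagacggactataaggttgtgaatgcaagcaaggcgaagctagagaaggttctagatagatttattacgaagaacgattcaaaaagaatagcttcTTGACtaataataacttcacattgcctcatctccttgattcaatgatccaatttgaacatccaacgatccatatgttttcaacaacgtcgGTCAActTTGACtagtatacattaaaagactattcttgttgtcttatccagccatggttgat
The GSTF7 window had 3 matches to TTGAC and 0 to TGACG.

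Tau genes of the cluster on chromosome 2, GSTU1 to GSTU7, ranged from -0.48 to 5.56 in log2 ratio. GSTU3 (AT2G29470, 12628422 to 12629640) had 4 control counts and 262 with estradiol, 0.0944 against 5.02 RPKM and 53.2-fold higher (20.5 to 197). Its log2 ratio was above that of 99.5% of measured genes, but its level with estradiol was above that of GSTU2 alone among its cluster neighbours. GSTU4 (AT2G29460, 12626478 to 12627891) had 863 and 5411 counts, 18.6 against 94.4 RPKM, and was 5.09-fold higher (4.73 to 5.47). In the control 9 of the 27 tau genes had a higher level than GSTU4, and with estradiol GSTU19, GSTU13 and GSTU5 did. GSTU5 (AT2G29450), the gene with the highest level in this cluster in both libraries, had 8681 and 7676 counts, 173 against 124 RPKM and a ratio of 0.718 (0.696 to 0.740). GSTU7 (AT2G29420) had 2651 and 3850 counts, a ratio of 1.18 (1.12 to 1.24). GSTU6 (AT2G29440) had 208 and 495, a ratio of 1.93 (1.64 to 2.28). GSTU1 (AT2G29490) had 473 and 866 counts, 1.49-fold those of the control (1.33 to 1.67). GSTU2 (AT2G29480) had 25 and 77, a ratio of 2.50 (1.57 to 4.10) that was not called. The summed counts of the cluster, 12905 and 18637, gave a ratio of 1.17 (1.15 to 1.20), since GSTU5 holds most of its control counts.

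Transcripts of GSTU1 to GSTU4 are alike over stretches of 100 bases at 90% identity or more, with identical runs of at most 42 bases. Summed, these 4 genes had 1365 and 6616 counts, 3.93-fold higher (3.71 to 4.17). Upstream windows of 250 bases are shown for GSTU1, GSTU3 and GSTU4, of which GSTU1 was not called. They lie on the minus strand at chr2:12632539-12632788, chr2:12629641-12629890 and chr2:12627892-12628141, and capitals again mark TGACG and TTGAC on either strand.
GSTU1: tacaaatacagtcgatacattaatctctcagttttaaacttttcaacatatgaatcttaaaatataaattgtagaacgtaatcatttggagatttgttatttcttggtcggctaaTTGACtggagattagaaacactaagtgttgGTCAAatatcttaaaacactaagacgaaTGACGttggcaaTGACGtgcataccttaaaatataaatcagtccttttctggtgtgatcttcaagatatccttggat
GSTU3: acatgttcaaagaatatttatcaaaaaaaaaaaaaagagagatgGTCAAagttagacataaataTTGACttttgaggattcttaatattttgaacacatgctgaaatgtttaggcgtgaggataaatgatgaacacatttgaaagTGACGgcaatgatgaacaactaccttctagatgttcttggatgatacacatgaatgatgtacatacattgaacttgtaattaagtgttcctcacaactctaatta
GSTU4: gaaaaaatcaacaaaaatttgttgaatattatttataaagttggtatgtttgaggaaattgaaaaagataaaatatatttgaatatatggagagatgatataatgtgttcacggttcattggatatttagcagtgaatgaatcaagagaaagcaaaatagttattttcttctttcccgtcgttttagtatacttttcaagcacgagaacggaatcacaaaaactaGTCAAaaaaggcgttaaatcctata
GSTU1 had 2 matches to TGACG and 2 to TTGAC, GSTU3 had 1 and 2, and GSTU4 had 0 and 1. The uncalled GSTU1 thus had more TGACG matches than the called genes beside it. Identical runs shared between these windows were at most 9 bases.

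The remaining tau genes called higher were rare ones. GSTU9 (AT5G62480, chromosome 5), outside the tandem clusters, had 69 and 314 counts, 1.69 against 6.25 RPKM and a 3.69-fold ratio (2.84 to 4.86). GSTU11 (AT1G69930) had 73 and 262 counts, 1.70 against 4.95 RPKM and a 2.91-fold ratio (2.24 to 3.83). Its cluster partner GSTU12 (AT1G69920) had 19 and 33 counts, a ratio of 1.41 (0.778 to 2.62). Low counts left other tau genes undecided. GSTU22 (AT1G78340) had 13 and 44 counts, a ratio of 2.75 (1.45 to 5.56). GSTU28 (AT1G53680) had 18 and 50, a ratio of 2.25 (1.29 to 4.11).

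The remaining measured tau genes, several with control levels above that of GSTU4, were not called. GSTU13 (AT1G27130), known for a role in indole glucosinolate metabolism, had 5670 and 8926 counts, a ratio of 1.28 (1.24 to 1.32). GSTU27 (AT3G43800) had 2628 and 3022, a ratio of 0.933 (0.885 to 0.984). GSTU16 (AT1G59700), the abundant gene of its pair, had 2173 and 2228, a ratio of 0.832 (0.784 to 0.883). GSTU17 (AT1G10370), also named ERD9 for its response to drying, had 1180 and 1301 counts, a ratio of 0.895 (0.826 to 0.969). Its neighbour GSTU18 (AT1G10360) had 2273 and 1747, a ratio of 0.624 (0.586 to 0.664). The pair overlaps by 71 bases. GSTU24 and GSTU25, both known to act on the explosive TNT, had 2402 and 3071 counts (ratio 1.04) and 272 and 510 counts (ratio 1.52). GSTU26 (AT1G17190), the third gene of that cluster, had 388 and 227, a ratio of 0.475 (0.401 to 0.561). Its log2 ratio of -1.07 was the lowest among measured members, and its interval did not lie wholly below 0.5-fold. GSTU8 (AT3G09270) had 499 and 926 counts, a ratio of 1.51 (1.35 to 1.68). GSTU10 (AT1G74590) had 255 and 550, 1.75-fold those of the control (1.51 to 2.04), and GSTU23 (AT1G78320) 97 and 69, a ratio of 0.577 (0.418 to 0.794). GSTU14, GSTU15 and GSTU21 had at most 4 counts in either library and were not measured.

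**Figure D3:**
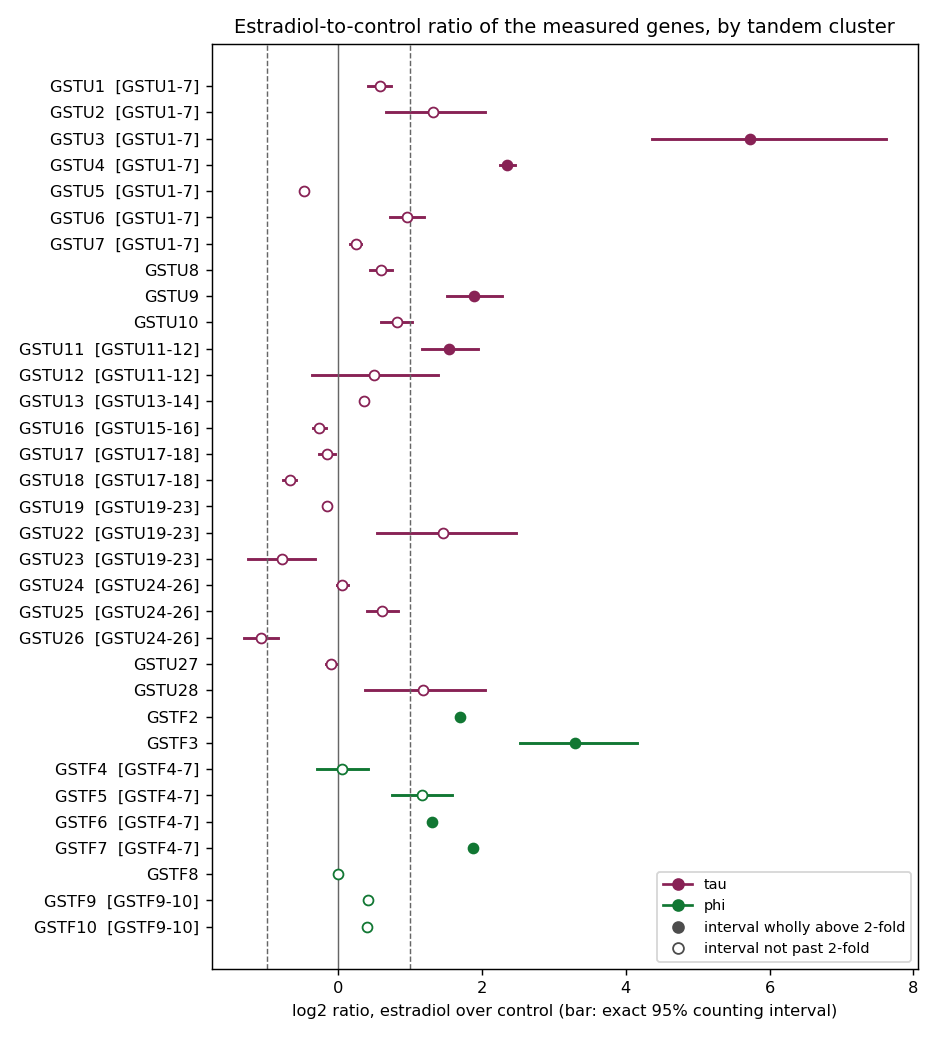
Log2 ratio of estradiol to control for the 33 measured genes in family order, with exact 95% counting intervals as bars, filled points where the whole interval lies above 2-fold (right dashed line) and tandem clusters in brackets. The 8 filled points are GSTU3, GSTU4, GSTU9, GSTU11, GSTF2, GSTF3, GSTF6 and GSTF7, and open points to the left reach -1.07 at GSTU26.

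As totals, the tandem clusters ran from lower to higher. Summed counts were 2.83-fold higher with estradiol for GSTF4 to GSTF7 (2.78 to 2.88) and 2.60-fold for GSTU11 and GSTU12 (2.05 to 3.33), and both intervals lay wholly above 2-fold. The ratio was 1.33 for GSTF9 and GSTF10 (1.31 to 1.34) and 1.28 for GSTU13 and GSTU14 (1.24 to 1.32). It was 1.01 for GSTU24 to GSTU26 (0.962 to 1.06) and 0.898 for GSTU19 with GSTU21 to GSTU23 (0.880 to 0.916). The pairs GSTU15 with GSTU16 and GSTU17 with GSTU18 were at 0.832 (0.784 to 0.883) and 0.716 (0.682 to 0.752). GSTU20, which sits between GSTU19 and GSTU21 on the chromosome and is not among the 38, was 2.94-fold lower (2.84 to 3.04), from 11615 to 4870 counts, and was no longer called when the assumed variation was added.

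**Figure D4:**
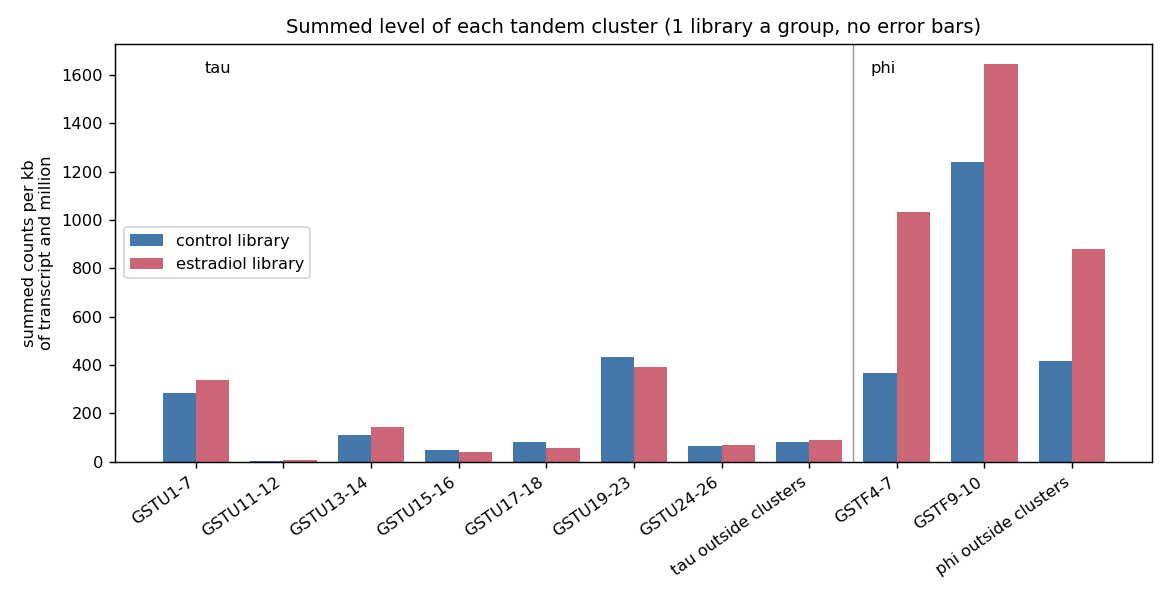
Bars give the summed level of each tandem cluster in the control and the estradiol library, in RPKM, with tau genes left and phi genes right of the line. The GSTF4-7 bar goes from 367 to 1033, while the GSTU19-23 bar goes from 434 to 390.

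Members with alike proteins, neighbours or not, did not always have alike ratios. Among 12 pairs of measured tau genes with at least 70% protein identity, the median difference in log2 ratio was 1.24, and it was 0.95 over the 264 pairs below 70%. Among phi genes it was 0.57 over 7 pairs at 70% or more and 1.25 over 29 pairs below. The largest differences among the alike tau pairs all involved GSTU3, which had 4 control counts. GSTU1 and GSTU3, 74.2% identical, differed by 4.99. These pairs share genes, so the values describe the family only. All 27 tau genes had 2 exons in the reference, whereas 8 of 11 phi genes had 3 and the others 2, 4 and 5.

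In 250-base upstream windows, matches to TGACG were found for 14 of 33 measured members, and 19.5% of 19630 windows of measured protein-coding genes held one. They were found for 4 of the 8 genes called higher and for 10 of the 25 others. TTGAC was present for 7 of the 8 and 13 of the 25, against 45.1% of all windows. CGTG, part of the core bound by NAC factors, was present for 5 of the 8 and 15 of the 25, against 46.3%. Some windows reach into a neighbouring gene, and a match is not evidence of binding.

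Glutathione transferase genes outside the 38 had calls in both directions. Of 16 measured genes, which include GSTU20, GSTF11 and GSTF12, 1 was called higher and 2 lower, with a median log2 ratio of 0.02. Over all measured genes 5.38% were called higher and 4.64% lower. GSTL1, of the lambda class, had 35 and 460 counts, 10.7-fold higher (7.56 to 15.5), and GSTF11, a phi gene tied to aliphatic glucosinolate synthesis, had 263 and 50, 6.48-fold lower (4.78 to 8.96). GSTF11 overlaps the annotated gene AT3G03200. None of 12 measured genes of glutathione synthesis, recycling and breakdown was called, with a median of 0.22. GSH1, which encodes the enzyme for the committed step of glutathione synthesis, had 19149 and 28100 counts, a log2 ratio of 0.25.

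Of 11 ABCC transporter genes 1 was called higher and 0 lower, with a median of 0.36. Over all measured genes 5.38% were called higher and 4.64% lower, and 1 call in a list this small cannot be told from that share. The ABCC gene called was ABCC7, with 333 and 1444 counts, 3.52-fold higher (3.12 to 3.98). ABCC1 and ABCC2, known vacuolar pumps for glutathione conjugates, had log2 ratios of 0.36 and -0.29. The uncalled ABCC genes ran from -0.90 at ABCC14 to 1.03 at ABCC3, which had 5089 and 12840 counts. Among 17 genes that respond to xenobiotics with the transferases, 4 were called higher and 0 lower, against 5.38% and 4.64% of all measured genes. Their median was 0.04. ABCG40, a plasma membrane transporter, had 166 and 3939 counts, 19.3-fold higher (16.5 to 22.6), and UGT73B4, a glycosyltransferase gene that overlaps UGT73B5, was 5.09-fold higher (4.36 to 5.97). The export carrier DTX1 was 3.84-fold higher (3.07 to 4.85), and AT3G04000, an aldehyde reductase gene, 2.88-fold (2.64 to 3.15). When the assumed variation was added AT3G04000 was no longer called, which left 3 higher, where 3.26% of all measured genes were. The drug-inducible genes CYP81D11 and UGT74E2 had log2 ratios of -0.64 and -0.58. CYP81D8 and UGT73B5, also not called, were at 1.02 and 0.55, and the uncalled genes of this list ran from -0.64 to 1.02. Among 9 TGA factor genes and partners 1 was higher and 0 lower, again beside 5.38% and 4.64% of all measured genes, with a median of -0.01. It was GRX480, a glutaredoxin gene that interacts with TGA factors, at 62 and 790 counts, 10.3-fold higher (7.98 to 13.6). TGA2 had 825 and 1015 counts, a ratio of 0.998 (0.910 to 1.10). TGA5 and TGA6 were at log2 ratios of 0.63 and -0.03, and SCL14 was at -0.14. The uncalled genes of this list ran from -0.40 at TGA4 to 0.70 at TGA1.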

How the data were processed

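RNA sequencing gave 2 libraries of leaf explants, 1 with estradiol and 1 control, grouped by the treatment label. The authors deposited raw read counts per locus, 33602 loci and 5 summary lines a file. Per the submitters' processing notes FastQC, HTSeq and DESeq and the TAIR10 build were used. The sources used here do not give the aligner, annotation release or strand setting. Ambiguous reads were 2.05% of the control lines and 1.91% of the estradiol lines, reads outside features 0.742% and 0.693%, and both stayed out of library sizes.

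Library sizes were scaled by TMM factors of 0.993 and 1.007 (edgeR 4.0.16, R 4.3.3). Ratios have exact 95% Clopper-Pearson intervals conditional on the summed counts (scipy 1.17.1), and log2 ratios use a prior count of 0.5. Equal counts of 10 give an interval of 0.374 to 2.68 and of 1000 one of 0.915 to 1.09. Intervals and the floor of 3 counts cover counting error only, and without molecular identifiers reads may share a molecule. The size rule was run over all 20274 measured genes. RPKM was computed here from the counts, TMM sizes and the longest RefSeq transcript. Similar transcripts were found with BLAST 2.17.0 and proteins aligned with Biopython 1.88.

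Sequences and annotation come from RefSeq on TAIR10.1, matched by locus (32835 of 33602), and the files hold no coordinates. Members called, those with the highest level in a class or cluster, and those past 1 on the log2 scale were to be named with counts, and list genes where called, up to 4 a list. Further members and list genes are named to account for the family, a choice made after seeing their values. Members and lists were chosen with earlier results of these data known. Alternatives were other scalings, count minimums, a 4-fold threshold, an assumed variation between libraries, another prior count and summed similar genes.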

Additional observations from a re-analysis of the deposited data

How the results depend on the processing

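The 8 members called higher and the 0 called lower kept those counts with total counts, DESeq2 size factors (DESeq2 1.42.0), upper quartile factors, no count minimum and a minimum of 50 counts. These settings could change little. Each scaling shifts all genes alike, by -0.06 to 0.02 in log2 ratio, and every called member had at least 181 counts with estradiol. The count of higher members was 3 with a 4-fold threshold, 5 with the assumed variation of 0.2 and 4 of 24 units with similar members summed, and 0 were lower under each. The 4 units were the sum of GSTF2, GSTF3, GSTF6 and GSTF7, the sum of GSTU1 to GSTU4, GSTU9 and GSTU11. GSTU20 and GSTF11, called lower in the main setting, are not members and do not enter these counts. The median log2 ratio ran from 0.46 to 0.55 for tau members and from 1.09 to 1.17 for phi members over the alternatives. None of these added GSTU20, GSTF11 or GSTF12. Without the length correction the tau share of both classes was 32.9% in the control and 22.2% with estradiol, against 35.4% and 24.1% with it. With the assumed variation 1 of the other transferase genes stayed lower in place of 2, and 3 xenobiotic genes higher in place of 4. Of all measured genes 1.9% were lower and 3.26% higher under that rule. Summed count ratios were 0.894 for tau with GSTU20 added, against 1.02, and 1.71 for phi with GSTF11 and GSTF12 added, against 1.76, an alternative chosen after seeing the data. All 9 cluster totals kept their side of the 2-fold threshold with total counts. The variation between libraries could not be estimated, so the assumed 0.2 is not a measurement. GSTU2, GSTU12, GSTU22 and GSTU28, each under 50 counts in the control, had intervals that spanned 2-fold.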
